A study of Homo sapiens with 6 samples.

Results

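The D-type cyclins, the cyclin-dependent kinase (CDK) inhibitors of both families and RB1 were compared between carfilzomib-resistant LP-1/Cfz cells and the parental LP-1 cells. The members are the 10 genes CCND1, CCND2, CCND3, CDKN1A, CDKN1B, CDKN1C, CDKN2A, CDKN2B, CDKN2C and RB1, taken as every probe set that is annotated with one of these symbols and no other gene. This gave 22 of the 54613 probe sets on the array, for 9 of the 10 genes. CDKN2C had no such probe set in the annotation used, which names no gene for 11721 probe sets, and is not described further. There were 0 probe sets that named a member together with another gene. LP-1 cells come from a multiple myeloma, and culture in rising concentrations of carfilzomib, a proteasome inhibitor, gave the LP-1/Cfz cells, which resist 12 nM. The LP-1/Cfz cells had been grown for 1 week without the drug when RNA was taken, so that neither group was under drug, and the labels give 4% fetal bovine serum for both. Each group has 3 arrays (Affymetrix U133 Plus 2.0). LP-1/Cfz is a single selected derivative, and no source used here describes the triplicates as separate cultures. A p-value here covers the spread between these samples alone, which may be technical.

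Passage from G1 into S phase is governed by these genes. D cyclins bind and activate CDK4 and CDK6, which phosphorylate RB1. Unphosphorylated RB1 holds E2F transcription factors in check, and cyclin E with CDK2 completes its inactivation. The CIP/KIP inhibitors p21 (CDKN1A), p27 (CDKN1B) and p57 (CDKN1C) bind cyclin-CDK complexes broadly, whereas the INK4 inhibitors, p16 (CDKN2A), p15 (CDKN2B) and p18 (CDKN2C), bind CDK4 and CDK6. In multiple myeloma a D cyclin is overexpressed in nearly all tumors, either through a translocation or in its absence.

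The deposited values are on a log2 scale, and every probe set is centred on its own baseline, whose origin is not stated. Differences between arrays can therefore be read, but not how strongly a gene was expressed nor which of several genes was the most abundant, and the labelled plasma cell origin could not be checked from levels. LP-1/Cfz replicate 3 stood apart: the interquartile range of its values was 0.338 against 0.23 to 0.264 on the other 5 arrays. Calls of the members that were lost without it are named below. For the other genes, the calls lost without it are not named. Of 7 plasma cell markers SLAMF7 fell by 2.17 and CD38 by 1.07 on the log2 scale, and SDC1 and TNFRSF17 rose. PRDM1, XBP1 and IRF4 did not pass, and the median log2 difference of the 7 markers was 0.07. The mean of the 7 was 0.476 to 0.493 on the LP-1 arrays and 0.0579 to 0.174 on the LP-1/Cfz arrays. The part of these changes in the results below was not tested. Of the T and NK cell markers 1 of 7 was called (GNLY, lower), and of the myeloid and stromal markers 0 of 5 and 0 of 6.

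Of the 22 probe sets, 10 passed the test (limma, Benjamini-Hochberg adjusted p under 0.05 over all probe sets) and 12 did not. Of the 10, 8 rose in LP-1/Cfz and 2 fell. Over the whole array 11% of probe sets passed, 4.25% higher and 6.76% lower. The higher probe sets were those of CCND2 and of the 3 CIP/KIP inhibitors. The lower ones were both those of CDKN2B. The 3 LP-1/Cfz values did not overlap the 3 LP-1 values for 17 of the 22 probe sets, against 30.7% of all probe sets. Dropping each array in turn left 8 of the 10 calls standing in every one of the 6 fits. The other 2 calls were for 1 probe set each of CDKN1C and CDKN2B. Without LP-1/Cfz replicate 3, 9 of the 10 passed, and 9.81% of all probe sets. The median log2 difference was 0.19 over the 22 probe sets and 0.017 over all probe sets. With 3 against 3 arrays an exact permutation test of a single probe set cannot give a two-sided p under 0.1.

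**Figure D1:**
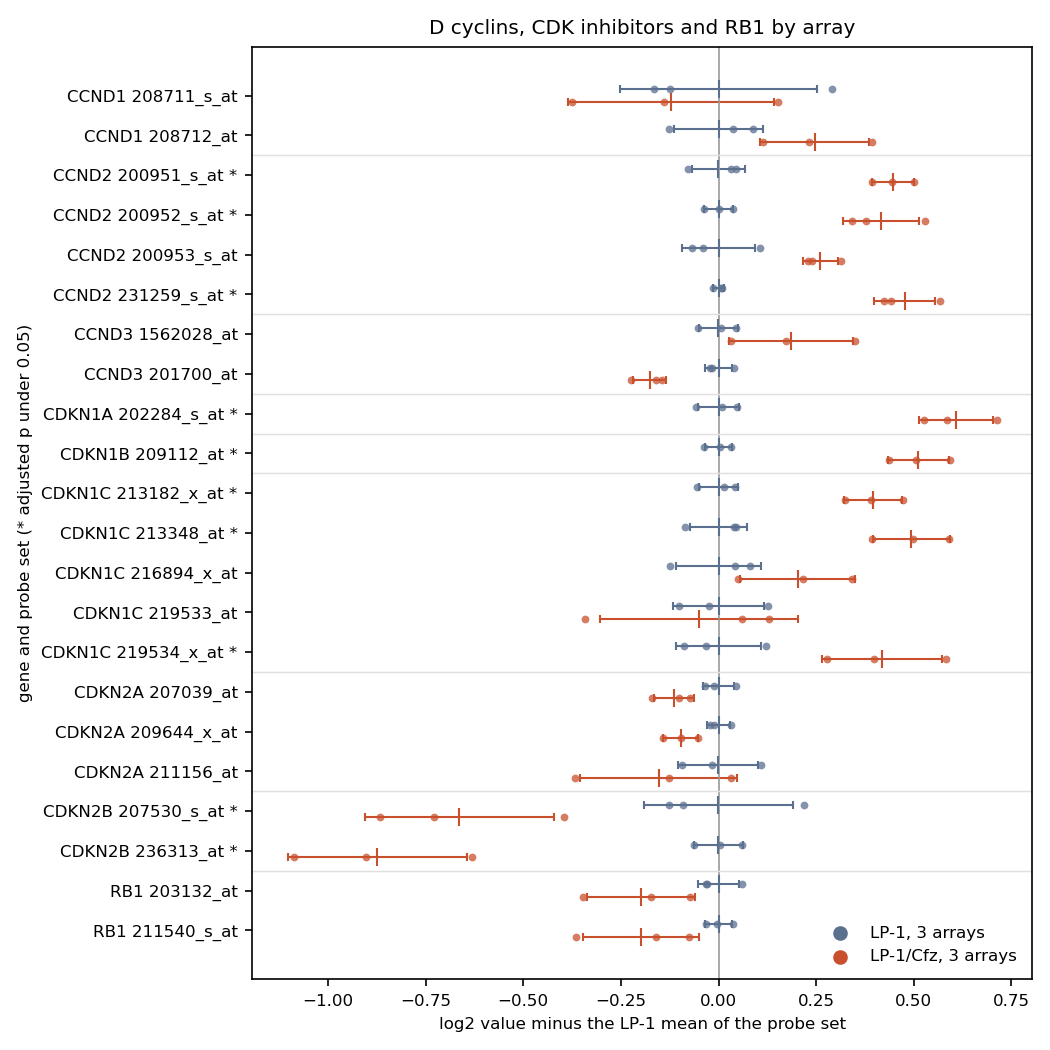
Values of the 22 probe sets in LP-1 cells (3 arrays) and LP-1/Cfz cells (3 arrays), on a log2 scale with the mean of the LP-1 arrays set to 0. Points are single arrays, bars show mean and SD (n = 3 arrays), and a star marks the 10 probe sets with an adjusted p under 0.05. CCND2, CDKN1A, CDKN1B and 3 of 5 CDKN1C probe sets lie to the right of LP-1, and both CDKN2B probe sets to the left.

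The sequences before the start sites of CDKN1A, CDKN1B and CDKN2B are shown because these genes gave the largest differences in the 2 directions. Each is the 250 bases upstream of the annotated start, 5′ to 3′ on the strand of the gene (RefSeq, GRCh38.p14), with capitals for the GC box GGGCGG on either strand, the motif bound by Sp1.
CDKN1A, chr6:36678464-36678713, plus strand: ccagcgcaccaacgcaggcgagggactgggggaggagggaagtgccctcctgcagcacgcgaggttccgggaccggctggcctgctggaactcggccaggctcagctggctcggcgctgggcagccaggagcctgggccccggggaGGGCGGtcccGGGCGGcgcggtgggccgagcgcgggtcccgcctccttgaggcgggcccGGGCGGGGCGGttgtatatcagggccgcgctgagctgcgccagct
CDKN1B, chr12:12717118-12717367, plus strand: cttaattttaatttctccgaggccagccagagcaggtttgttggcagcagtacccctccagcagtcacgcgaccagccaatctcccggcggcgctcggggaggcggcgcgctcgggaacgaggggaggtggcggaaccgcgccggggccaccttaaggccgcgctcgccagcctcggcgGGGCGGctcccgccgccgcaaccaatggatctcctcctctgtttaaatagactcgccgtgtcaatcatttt
CDKN2B, chr9:22009306-22009555, minus strand: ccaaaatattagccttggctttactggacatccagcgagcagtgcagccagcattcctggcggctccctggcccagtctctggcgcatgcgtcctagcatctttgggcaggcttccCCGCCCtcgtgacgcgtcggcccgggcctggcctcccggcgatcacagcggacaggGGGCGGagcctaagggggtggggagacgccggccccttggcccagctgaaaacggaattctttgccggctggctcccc
All 3 windows hold a GC box, as do 42.6% of the 35116 promoters of the same length. CDKN1A has 4 matches (the last ones overlap each other), CDKN2B has 2 and CDKN1B has 1. The core of the antioxidant response element, TGACNNNGC, which Nrf2 binds with small MAF proteins, has 1 match in the CDKN1B window and is found in 10.9% of all promoters, and it has 0 matches in the CDKN1A and CDKN2B windows. For the AP-1-like TGANTCA, the E2F-like TTTNNCGC, the FOXO motif GTAAACA and the E-box CACGTG there were 0 matches on either strand in these 3 windows. The first of these can lie within TGACNNNGC. They occur in 6.57%, 5.92%, 2.98% and 6.34% of all promoters. A match is a match of letters in this window and no evidence of binding.

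Among the D cyclins, CCND2 was higher in LP-1/Cfz. CCND2 encodes cyclin D2, a partner of CDK4 and CDK6, and is the D cyclin of many myelomas that carry the t(4;14) translocation. On its probe set with the largest difference (231259_s_at) the LP-1 arrays had -0.34, -0.34 and -0.36 and the LP-1/Cfz arrays 0.079, 0.097 and 0.22. The LP-1/Cfz values were all above the LP-1 values, and the rise was 0.48 on the log2 scale, a 1.39-fold change (standard error 0.0643, adjusted p = 0.00295 from limma). The second, 200951_s_at, had -0.32, -0.43 and -0.31 in LP-1 and 0.15, 0.094 and 0.042 in LP-1/Cfz. It rose by 0.45 (adjusted p = 0.00438), and 200952_s_at rose by 0.42 (adjusted p = 0.00811). The fourth, 200953_s_at, did not pass at 0.26 (standard error 0.0701, adjusted p = 0.053), although its groups did not overlap either. All 4 probe sets thus differed in the same direction, by 0.26 to 0.48. At the gene level, where the probe sets of a gene are averaged, CCND2 rose by 0.40 (standard error 0.0469, adjusted p = 0.00104), and the call was kept without any one of the 6 arrays.

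CCND1 and CCND3 did not pass the test on any probe set, and the probe sets of each pointed in opposite directions. CCND1, cyclin D1, is the target of the t(11;14) translocation of myeloma. Its probe set 208712_at had -0.76, -0.59 and -0.54 in LP-1 and -0.40, -0.24 and -0.52 in LP-1/Cfz. The groups were just apart, with a difference of 0.25 (95% interval 0.03 to 0.46, adjusted p = 0.146 from limma), and it was only with the arrays quantile normalized again that this probe set passed, at 0.34 (adjusted p = 0.0392). On 208711_s_at the difference was -0.12 (95% interval -0.49 to 0.25), with SDs of 0.252 and 0.264 within the groups. The latter was 0.01 without LP-1/Cfz replicate 3 and 0.02 without LP-1 replicate 2, so that its sign rests on these arrays. CCND3, cyclin D3, had -0.18 on 201700_at (adjusted p = 0.112), where LP-1 had 0.95, 0.94 and 1.0 and LP-1/Cfz 0.74, 0.82 and 0.80. The groups did not overlap there, and were lower in LP-1/Cfz. On 1562028_at CCND3 had 0.18 (adjusted p = 0.251), with overlapping groups. Averaged over probe sets, CCND1 differed by 0.06 (95% interval -0.20 to 0.32) and CCND3 by 0.00 (-0.14 to 0.15).

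All 3 CIP/KIP inhibitors were higher in LP-1/Cfz. CDKN1A, the p21 inhibitor that p53 and other stress pathways induce, had -0.22, -0.32 and -0.26 in LP-1 and 0.26, 0.45 and 0.32 in LP-1/Cfz on its single probe set (202284_s_at). The groups were well apart, and the rise was 0.61 on the log2 scale, or 1.52-fold (standard error 0.0712, adjusted p = 0.00153 from limma). CDKN1B, the p27 inhibitor that restrains cyclin E-CDK2, had -0.25, -0.28 and -0.32 in LP-1 and 0.23, 0.31 and 0.16 in LP-1/Cfz, also on 1 probe set (209112_at). It rose by 0.51, or 1.43-fold (standard error 0.066, adjusted p = 0.00238). Both calls were kept in all 6 fits without 1 array, with an adjusted p of at most 0.011 for CDKN1A and 0.0167 for CDKN1B.

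CDKN1C, the p57 inhibitor, which is imprinted and best known from development, rose on 3 of its 5 probe sets. On 213348_at LP-1 had -0.20, -0.33 and -0.20 and LP-1/Cfz 0.26, 0.35 and 0.15. This was a rise of 0.49, or 1.41-fold (standard error 0.075, adjusted p = 0.00503 from limma), with no overlap of the groups. Probe set 213182_x_at rose by 0.40 (adjusted p = 0.00787), and 219534_x_at by 0.42 (standard error 0.0954, adjusted p = 0.0288). The call of 219534_x_at was lost without LP-1 replicate 1 or 2 or LP-1/Cfz replicate 1 or 2, with an adjusted p of up to 0.109. The 2 probe sets that did not pass were 216894_x_at, at 0.20 (adjusted p = 0.235), and 219533_at, at -0.05 (95% interval -0.35 to 0.24), where the groups overlapped. LP-1/Cfz replicate 3 was the lowest of the LP-1/Cfz arrays on 4 of the 5 probe sets, and without it 219533_at had 0.09. The suffix _x_at marks probe sets whose probes may also match other transcripts. Averaged over all 5, CDKN1C rose by 0.29 (standard error 0.0731, adjusted p = 0.0313), a call that was kept without LP-1/Cfz replicate 3 and lost without any one of the other 5 arrays (adjusted p up to 0.108).

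CDKN2B was the member with the largest difference, and it was lower in LP-1/Cfz. CDKN2B encodes p15, the INK4 inhibitor that TGF-beta induces. On 236313_at the LP-1 arrays had 0.39, 0.52 and 0.46 and the LP-1/Cfz arrays -0.45, -0.18 and -0.63. The groups were far apart, and the value fell by 0.87 on the log2 scale, or 1.83-fold (standard error 0.112, adjusted p = 0.00235 from limma). On 207530_s_at LP-1 had 0.35, 0.38 and 0.69 and LP-1/Cfz 0.079, -0.25 and -0.39. The groups again did not overlap, but the spread was wider, with SDs of 0.19 and 0.242, and the fall was 0.66, or 1.58-fold (standard error 0.138, adjusted p = 0.0197). This second call was lost in 4 of the 6 fits without 1 array, those without LP-1 replicate 2 or 3 or LP-1/Cfz replicate 2 or 3 (adjusted p up to 0.0678). At the gene level CDKN2B fell by 0.77 (adjusted p = 0.00149), and this was kept in all 6. The study's list of changed Nrf2 target genes, drawn from these arrays, holds 236313_at, so that its direction is not independent evidence. It is the only one of the 22 with a fold change of 1.7 or more, a size that 1.59% of all probe sets reached, 1.14% as a fall. Without LP-1/Cfz replicate 1 both CDKN2B probe sets reached it.

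CDKN2A, which lies beside CDKN2B and encodes p16 and, in another reading frame, ARF, did not pass on any of 3 probe sets. On 207039_at LP-1 had 0.065, -0.014 and 0.0089 and LP-1/Cfz -0.080, -0.053 and -0.15. LP-1/Cfz was lower without overlap there, by a difference of -0.11 (95% interval -0.26 to 0.03, adjusted p = 0.309 from limma). The others had -0.10 (209644_x_at, no overlap) and -0.15 (211156_at, overlapping). The 3 differences were all below 0 and all smaller in size than those of CDKN2B. The expression arrays do not tell here whether p16 or ARF transcripts were read.

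RB1, the pocket protein that the D cyclin kinases phosphorylate, was not called on either probe set. On 203132_at LP-1 had -0.32, -0.23 and -0.32 and LP-1/Cfz -0.47, -0.36 and -0.64. On 211540_s_at LP-1 had -0.010, -0.037 and 0.032 and LP-1/Cfz -0.17, -0.080 and -0.37. On both, the groups did not overlap and the difference was -0.20 (95% interval -0.39 to -0.01, adjusted p = 0.191 and 0.193 from limma). LP-1/Cfz replicate 3 was the lowest array on each, and without it the differences were -0.12.

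Genes around the members were then read at the gene level, where 16.7% of 19775 genes passed, 6.72% higher and 10% lower in LP-1/Cfz. Of the 9 members 4 rose (CCND2, CDKN1A, CDKN1B and CDKN1C) and 1 fell (CDKN2B). Among 36 further genes of the G1 kinases and the RB pathway, 3 rose, 10 fell and 23 did not pass, with a median log2 difference of -0.15 against 0.017 over all genes. The largest change was in CCNE2, cyclin E2, which activates CDK2. It had 0.52, 0.60 and 0.45 in LP-1 and -0.70, -0.59 and -0.78 in LP-1/Cfz and fell by 1.21 (standard error 0.0666, adjusted p = 2.26e-05 from limma). The other E cyclin, CCNE1, had -0.04 (95% interval -0.17 to 0.10). CDC25A, the phosphatase that activates CDK2, fell by 0.40 (adjusted p = 0.012). CDK4 had -0.03 (95% interval -0.14 to 0.09), CDK6 -0.08 (-0.20 to 0.04) and CDK2 -0.17 (-0.28 to -0.05, adjusted p = 0.0587), so that none of the 3 kinase genes passed. Without LP-1 replicate 3, 8 of the 36 genes were called in place of 13, and 2080 of all genes in place of 3312.

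The relatives of RB1 and several E2F factors were lower. RBL1 (p107) fell by 0.24 (adjusted p = 0.0125 from limma) and RBL2 (p130) by 0.33 (adjusted p = 0.0213). RBL1 was called in 4 and RBL2 in 3 of the 6 fits without 1 array. E2F1, an activator of S phase genes, fell by 0.32 (adjusted p = 0.00438) and was called in all 6, and E2F2 fell by 0.20 (adjusted p = 0.0334) and was called in 1. E2F3 did not pass, at -0.10 (95% interval -0.23 to 0.02). SKP2, which directs p27 to the proteasome, rose by 0.27 (standard error 0.0524, adjusted p = 0.0102, called in 5 of the 6), and its cofactor CKS1B had -0.03 (-0.14 to 0.07). SKP2 was thus higher in the same cells in which CDKN1B mRNA was higher. CDKN2D (p19, an INK4 inhibitor) had -0.16 and CDKN3, a phosphatase that acts on CDKs, -0.14, neither of which passed, and CCNA2, cyclin A2, had -0.02 (-0.14 to 0.10).

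**Figure D2:**
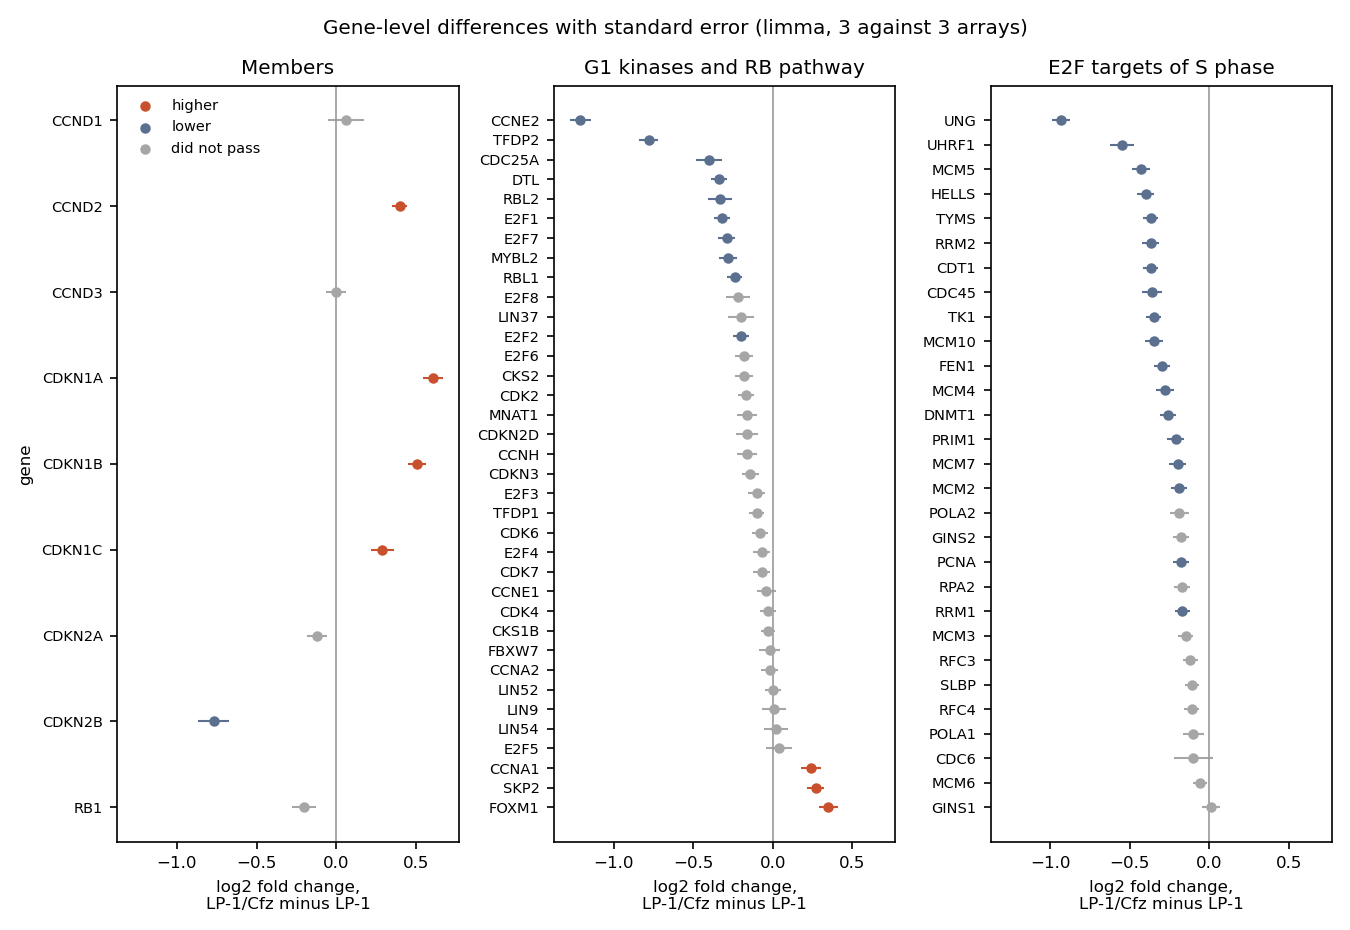
Gene-level log2 fold change (LP-1/Cfz minus LP-1) of the 9 measured members, of 36 genes of the G1 kinases and the RB pathway and of 29 E2F target genes of S phase. Points give the mean difference of 3 against 3 arrays, bars the standard error from limma, and colors the calls at an adjusted p under 0.05. CCNE2 has the largest fall of the second panel, and in the third 28 of 29 genes lie below 0.

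E2F target genes that act in S phase were lower in LP-1/Cfz: of 29 measured, 18 fell, 0 rose and 11 did not pass, with a median of -0.20 on the log2 scale. UNG, a uracil glycosylase, fell by 0.93 (adjusted p = 3.68e-05 from limma), UHRF1, which maintains DNA methylation, by 0.55 (adjusted p = 0.00224) and MCM5, a subunit of the replicative helicase, by 0.43 (adjusted p = 0.00206). Without LP-1/Cfz replicate 3, 13 fell and 0 rose, with 16.1% of all genes called. Most changes were small, and against a minimum fold change of 1.2, 1 of the 29 passed, beside 624 of all 19775 genes. Of 30 mitosis genes 11 fell and 0 rose, among them NUSAP1 (by 1.83), the proliferation marker MKI67 (by 0.67, adjusted p = 0.000184) and CENPF (by 0.63). The number of called mitosis genes was 6 without LP-1 replicate 1 and also 6 without LP-1 replicate 3. In these 2 fits 2100 and 2080 of all genes were called, in place of 3312.

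Genes that share a regulator with the inhibitors, or are known to regulate them, differed in both directions. Among 22 p53 target genes other than CDKN1A, 2 were higher and 7 lower, with a median of -0.03. SESN1 rose by 0.94 (adjusted p = 6.89e-05 from limma) and CCNG1 by 0.26 (adjusted p = 0.00724), as CDKN1A did, whereas the death receptor FAS fell by 1.81 (adjusted p = 1.73e-06), BAX, a pro-apoptotic BCL2 protein, by 0.71 (adjusted p = 0.000734) and SUSD6 by 0.44 (adjusted p = 0.00568). Among 29 regulators of the KIP and INK4 genes (FOXO, TGF-beta, MYC and polycomb genes), 6 were higher and 6 lower. FOXO3, a transcription factor that can activate CDKN1B, rose by 0.41 (adjusted p = 0.00141), ID2 by 0.44 (adjusted p = 0.0074) and KDM6B, a demethylase of the polycomb mark, by 0.34 (adjusted p = 0.0299). ETS1 fell by 0.81 (adjusted p = 0.00053), KLF4 by 0.43 (adjusted p = 0.0171) and CBX7, a polycomb protein that represses the INK4 genes, by 0.42 (adjusted p = 0.0154). In the 6 fits without 1 array KDM6B was called in 1, KLF4 and CBX7 in 4 each, and FOXO3, ID2 and ETS1 in all 6. Without LP-1 replicate 1, 7 of these 29 genes were called in place of 12, and 2100 of all genes in place of 3312.

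Among 13 genes tied to the D cyclins of myeloma, 1 rose and 4 fell. NSD2, the histone methyltransferase that t(4;14) activates, rose by 0.78 (adjusted p = 7.46e-05 from limma), while FGFR3, the receptor gene on the other derivative of that translocation, fell by 1.11 (adjusted p = 0.000802). CCR1, a chemokine receptor, fell by 1.5 (adjusted p = 0.00125) and NFKB1 by 0.35 (adjusted p = 0.00303).

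**Figure D3:**
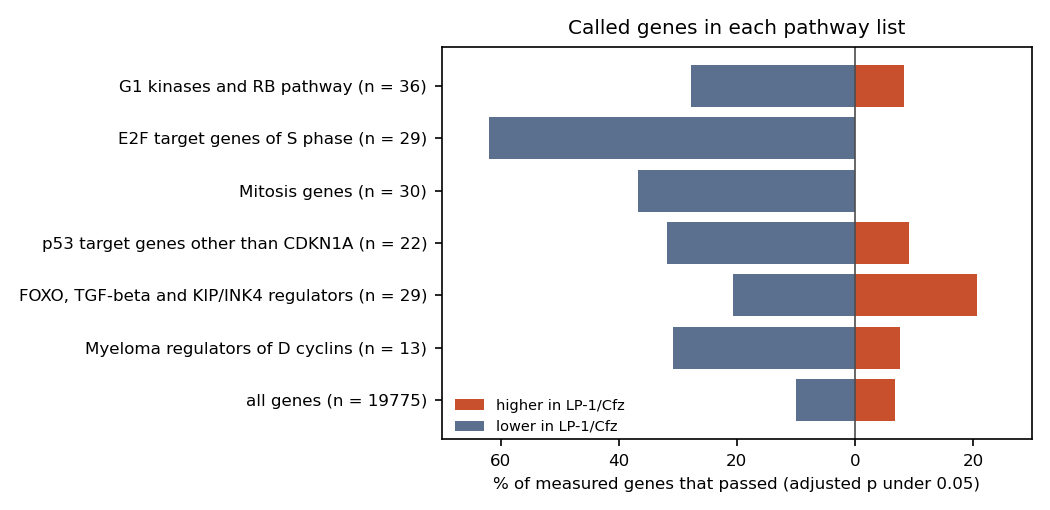
Share of the measured genes of each pathway list that were called higher (right) or lower (left) in LP-1/Cfz, in percent, with all 19775 genes in the lowest row. The E2F targets of S phase, with 18 of 29 genes lower and 0 higher, have the largest share of lower genes of the 6 lists.

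The members were also set beside their neighbours in gene order. Over all genes 6.72% were called higher and 10% lower, with a median log2 difference of 0.017. Of the 20 measured genes around CDKN2B on chromosome 9, 0 were higher, 1 was lower (TUSC1) and 19 did not pass. CDKN2B-AS1, the antisense transcript that overlaps CDKN2B, had 0.07 (adjusted p = 0.568 from limma), DMRTA1 on the far side -0.17 (adjusted p = 0.2), and MTAP, which is often lost together with CDKN2A, -0.03 (adjusted p = 0.731). Neither gene directly beside CDKN2B passed the test. Around CDKN1B on chromosome 12, 5 of 20 neighbours were higher and 2 lower, with a median of 0.16. Its next gene APOLD1 had 0.55 (adjusted p = 0.000251), a difference as large as that of CDKN1B, whereas GPR19 on the other side had 0.06 (adjusted p = 0.777).

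Around CCND2, on the same chromosome, 4 of 20 neighbours were higher and 0 lower, with a median of 0.14. The adjacent genes PARP11 and TIGAR had -0.05 and 0.16 and did not pass. Around CDKN1A on chromosome 6, 1 neighbour was higher and 2 were lower, and SRSF3 and CPNE5 beside it had -0.12 and 0.25 (adjusted p = 0.143 and 0.0754 from limma). CDKN1C on chromosome 11 had 3 higher and 3 lower neighbours, and the adjacent KCNQ1DN and SLC67A1-AS did not pass, at -0.09 and 0.00. For CCND1, CCND3 and RB1, 2, 2 and 3 of 20 neighbours were higher and 1, 0 and 0 lower.

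**Figure D4:**
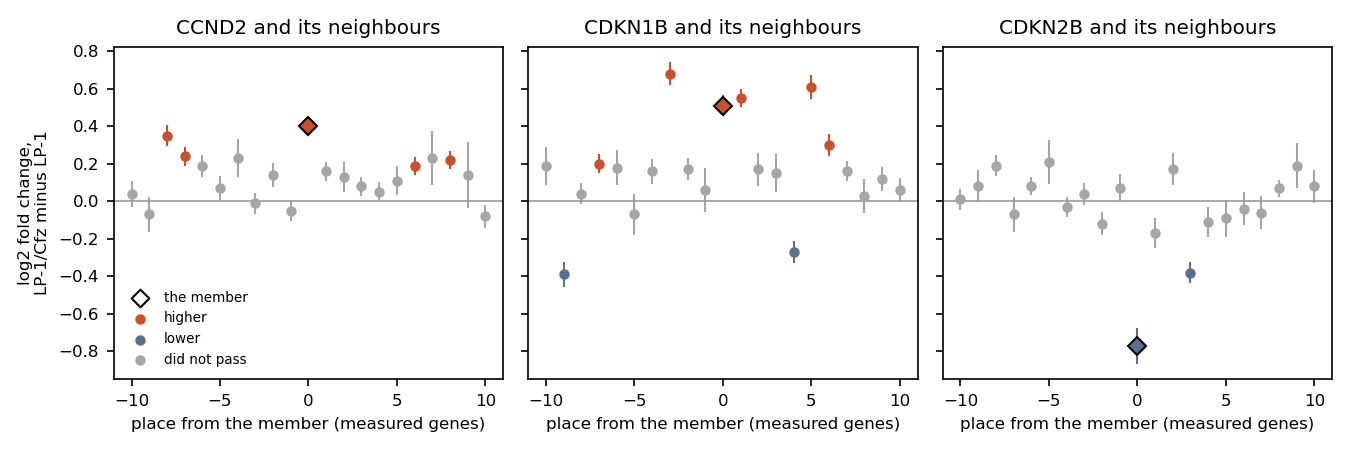
Gene-level log2 fold change (LP-1/Cfz minus LP-1) of CCND2, CDKN1B and CDKN2B (diamonds) and of the 10 measured genes on each side of each (circles), in gene order, with the standard error from limma. CDKN2B stands at -0.77 with 1 lower neighbour (TUSC1, -0.38) and 0 higher ones, and CDKN1B at 0.51 has 5 higher and 2 lower neighbours.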

How the data were processed

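RNA from 3 LP-1/Cfz and 3 LP-1 samples was measured on Affymetrix U133 Plus 2.0 arrays, 1 per sample. Groups and replicate numbers were taken from the sample titles. The values the authors deposited are log2 values made with RMA, per the submitters' notes, which give no version. Each probe set is relative to an unstated baseline, so no filter on low signal was possible. The number of arrays limits the precision. Of the 54613 probe sets, an annotation table names 1 gene for 41091, several for 1801 and none for 11721.

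Groups were compared (LP-1/Cfz minus LP-1) with limma 3.58.1, run in R 4.3.3 (lmFit, eBayes, no covariate, two-sided, Benjamini-Hochberg adjustment over all probe sets). For 19775 genes the single-gene probe sets were averaged and fitted likewise, and 10523 of these genes had more than 1. The fits were tested on simulated data. RefSeq tables (GRCh38.p14) gave the order of genes for the neighbours and the sequences before start sites, and 41037 of the single-gene probe sets matched them by gene ID. No 2 arrays held identical values.

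All members are named, as are 16 preset G1 genes, up to 3 called genes in each direction of every other list, the nearest neighbours and MTAP. FOXM1, TFDP2 and other called genes of the first list are given above only by count or in the plot. FOXM1 had the largest rise of that list, 0.35 on the log2 scale, and TFDP2 fell by 0.78. GNLY, the plasma cell markers and TUSC1 were chosen after their values were seen. The members and lists were chosen with earlier results of these data known.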

Additional observations from a re-analysis of the deposited data

How the results depend on the processing

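The 10 called probe sets of the members were 9 to 12 under a replicate block, a second quantile normalization, subtraction of array medians, array weights, a trended robust prior and adjustment over single-gene probe sets alone. Over the whole table these settings called 4544 to 7041 probe sets, against 6014 in the fit reported above. Leaving out 1 array at a time gave 8 to 9 called probe sets and 4 to 5 member genes (5 with all arrays). It gave 46 to 59 genes of the 6 pathway lists (68 with all arrays), and 1 to 2 probe sets at a fold change of 1.7 or more. The same fits called 3395 to 5355 of all probe sets and 2080 to 3183 of all genes, against 6014 and 3312 with all arrays. Against a minimum fold change of 1.2, 2 member probe sets passed (CDKN1A and 236313_at of CDKN2B), beside 1312 of all 54613 probe sets. At the gene level 3 member genes and 13 pathway genes passed, beside 624 of all 19775 genes. With 3 arrays per group, a difference that did not pass is not thereby shown to be small. CCND2 231259_s_at, at 1.39-fold, had an adjusted p of 0.16 in this limma test. CCND2 200953_s_at passed under 3 settings, the lowest adjusted p being 0.0269 with array weights.

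The replicate numbers are not stated to pair samples. The correlations of same-numbered deviations were -0.049, 0.126 and -0.006, which cannot tell whether same-numbered samples share a batch or culture. With the replicate numbers as a block, 9 member probe sets, 4 member genes and 56 pathway genes passed. The CDKN1C calls of 219534_x_at (adjusted p = 0.0651 from limma) and of the gene mean (0.0577) were lost. Not every sample correlated best with its own number.

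Signs changed only for values that did not pass. Over the fits without 1 array, CCND1 208711_s_at ranged from -0.26 to 0.02, CDKN1C 219533_at from -0.14 to 0.09, the gene mean of CCND1 from -0.04 to 0.16 and that of CCND3 from -0.04 to 0.05. With array weights CDKN1C 219533_at had 0.04. The gene mean of CCND3 was -0.01 after quantile normalization, -0.01 with array medians subtracted and -0.02 with array weights.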
